A study of Oryza sativa Japonica Group with 21 samples.

Results

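The third leaf of rice (Oryza sativa Japonica Group, cultivar Zhonghua 15) was compared at 2 ages, as a primordium and as a leaf that had just expanded, with 3 arrays for each age out of 21 arrays in the series. The primordia were dissected from embryos after seeds had taken up water for 2 to 3 days. For all 21 samples alike, the labels name growth at 30 ± 2 °C in 11 h of light and 13 h of dark, or in the field. They do not say which of the settings applied to which sample. The other 15 arrays hold dissected stamens of stages 2 to 6 and serve here for levels. The labels name 1 cultivar and no mutant or agent for any sample, the total RNA (50 to 300 ng) was amplified through 2 rounds before hybridization, and the study's design text names 3 biological replicates per sample. The arrays were chosen by their titles and not by any measured value.

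A leaf primordium inside a rice embryo is a small, pale organ whose cells are still to divide and enlarge, and it lies in a seed that has only begun to use its reserves. A just-expanded grass blade has stopped growing and carries out photosynthesis, with chloroplasts, stomata, veins and a silicified surface in place. Growth of grass leaves depends on growth-regulating factors and their coactivators, on D-type cyclins that start the cell cycle and on expansins that loosen walls. Chloroplast genes in the nucleus are switched on by light and by transcription factors of the GLK family.

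The expanded leaf arrays were less alike than those of the primordium. Over all probe sets they correlated at 0.931 to 0.949 with each other, against 0.981 to 0.995 among the primordium arrays, and between the ages at 0.798 to 0.836. The 3 values of a group spanned more than 2-fold for 22.2% of probe sets in the expanded leaf, 5.25% in the primordium and 2.14% to 5.86% in the stamen stages. No single expanded leaf array stood alone. Replicate 3 lay at least 2-fold above both of the others for 2431 probe sets and below both for 1330, replicate 2 for 1868 and 1610, and replicate 1 for 998 and 1105. The mean difference between the 3' and 5' control probe sets of actin and GAPDH was 3.37 in expanded leaf replicate 3 and 1.64 to 1.96 in the other 5 leaf arrays. It is a measure of RNA quality in which a larger value means less signal from the 5' end. For cyclophilin the difference was 0.98 in that replicate, within the -0.10 to 2.05 of the other 5. For ubiquitin it was -0.29, against -2.01 to -0.65. The part of RNA quality in the results below was not tested, and values without expanded leaf replicate 3 or 2 are given beside many of the results they change.

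Levels below are log2 values, a difference is the mean of the expanded leaf minus the mean of the primordium on that scale (n = 3 and 3), and the test is limma's, fitted to the 6 leaf arrays. A probe set or gene was called, and is said to have risen or fallen, at a Benjamini-Hochberg adjusted p under 0.05 over all 57258 probe sets and a difference of at least 2-fold. At this threshold 4182 probe sets rose (7.3%) and 5982 fell (10.4%) with leaf expansion, 17.8% in all. Without expanded leaf replicate 3 the counts were 4354 and 6063, and 9047 of the 10164 calls were kept. Without expanded leaf replicate 2 they were 4712 and 6759, and 9467 were kept. Both fits thus called more probe sets in each direction than the fit of all 6 arrays. The shares over all genes were not computed for them, so a list's gain in calls without a replicate may be no more than this general gain. Fewer cells of a type and less RNA per cell cannot be told apart in such bulk samples, here and in all results that follow.

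The largest rises among named genes included Rubisco activase, a phototropin and a catalase. RCAA1, which encodes Rubisco activase, stood at 4.06, 4.33 and 4.73 in the primordium and 13.70, 13.46 and 13.75 in the expanded leaf, a difference of 9.27 (SE 0.20, adjusted p = 7.5e-06). All 3 expanded leaf values lay far above all primordium values. Other probe sets of RCAA1 rose by 8.12, 8.04 and 6.57, so the direction was shared and the size was not. Pi21, a proline-rich protein whose loss gives resistance to blast fungus, rose by 9.11 (SE 0.44, adjusted p = 7.29e-05). The metallothionein gene MT2B stood at 3.67, 3.43 and 3.91 in the primordium and 12.99, 10.64 and 13.22 in the expanded leaf, and rose by 8.61 (SE 0.69, adjusted p = 0.000462). Its primordium values were near the bottom of the scale and replicate 2 was the lowest of the expanded leaf. Osnph1a, a phototropin that senses blue light, rose by 8.27, and cdsp32, a plastid thioredoxin, by 7.82. BURP16, a BURP domain protein, rose by 7.37, the lipid transfer protein gene LTP2-B by 7.22 and 7.11 on different probe sets, the beta-glucosidase gene BGLU16 by 7.22 and the fructose-bisphosphatase gene FBPase by 7.18. The list ended with the catalase CatA (7.05), the peroxisome division factor OsPEX11-4 (6.99) and the sugar transporter SWEET2B (6.98).

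The largest falls were found in genes known from fermentation, reserve use, embryo maturity and organ growth. PDC1, a pyruvate decarboxylase of alcoholic fermentation, stood at 13.39, 13.30 and 13.44 in the primordium and 4.67, 6.01 and 5.29 in the expanded leaf, a difference of -8.05 (SE 0.33, adjusted p = 4.63e-05). AMY1.3, an alpha-amylase of germinating seeds, fell from 12.99, 13.25 and 13.57 to 4.45, 7.94 and 3.93 (-7.83, adjusted p = 0.00331). The expanded leaf replicate 2 kept a higher level of it than the other two. MAKIBA3, the coactivator of growth-regulating factors, stood at 12.33, 12.40 and 12.07 in the primordium and 4.59, 4.49 and 4.43 in the expanded leaf, a difference of -7.77 (SE 0.14, adjusted p = 5.77e-06). GRF6, one of the factors themselves, changed by -7.61, and the YABBY gene YAB5 by -7.13. Also far lower were the small heat shock gene HSP23.2 (-7.75), the mannose-binding lectin ML, known also as salT (-7.65), the LEA protein gene EM (-7.42), the 1-Cys peroxiredoxin R1C-Prx (-7.13), the seed tonoplast aquaporin TIP3-1 (-7.11), the sucrose synthase SUS1 (-6.88) and the glutaredoxin GRXC3 (-6.61). The expanded leaf arrays were far apart for other genes of this set too. RAB16B stood at 4.22, 4.22 and 9.81 there, high in replicate 3, and the protein phosphatase OsPP2C45 at 3.77, 8.47 and 3.84, high in replicate 2.

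**Figure D1:**
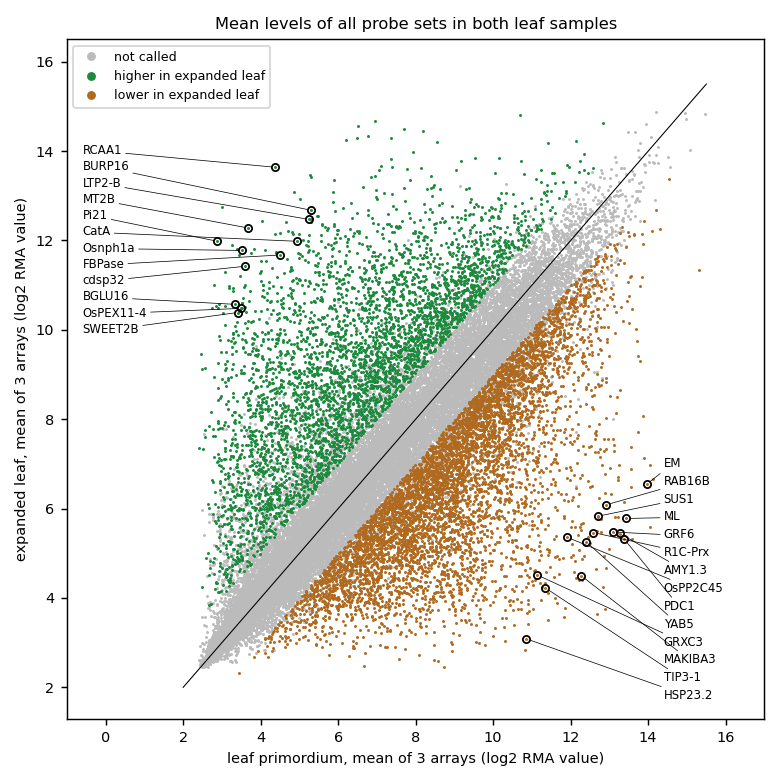
Mean log2 level of each of the 57258 probe sets in the leaf primordium (horizontal axis) and the expanded leaf (vertical axis), with probe sets called higher in green, called lower in brown and the rest in grey. Circled are the named genes with the largest rises and falls, RCAA1 at 4.37 and 13.64 and EM at 13.97 and 6.55 among them, and the line marks equal levels.

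For groups of genes, each gene was read from the probe set whose mean over the 6 arrays was highest. Of 17905 genes so measured 15.1% rose and 19.8% fell. All expanded leaf values lay above all primordium values for 25.8% and below them for 32.0%, and the median difference was -0.06. The 42 lists described below hold 600 genes, and their shares are read against these values. The lists were chosen with earlier results of these data known, so a list's direction is a description and no list was tested as a whole. Of the 600 genes, 87 were read from probe sets of the types that may match other transcripts too, and for these the gene is uncertain. Of the 128 genes with more than 1 probe set, 2 (GLO1 and PRDA1) had probe sets called in opposite directions and 41 had both called and uncalled probe sets.

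**Figure D2:**
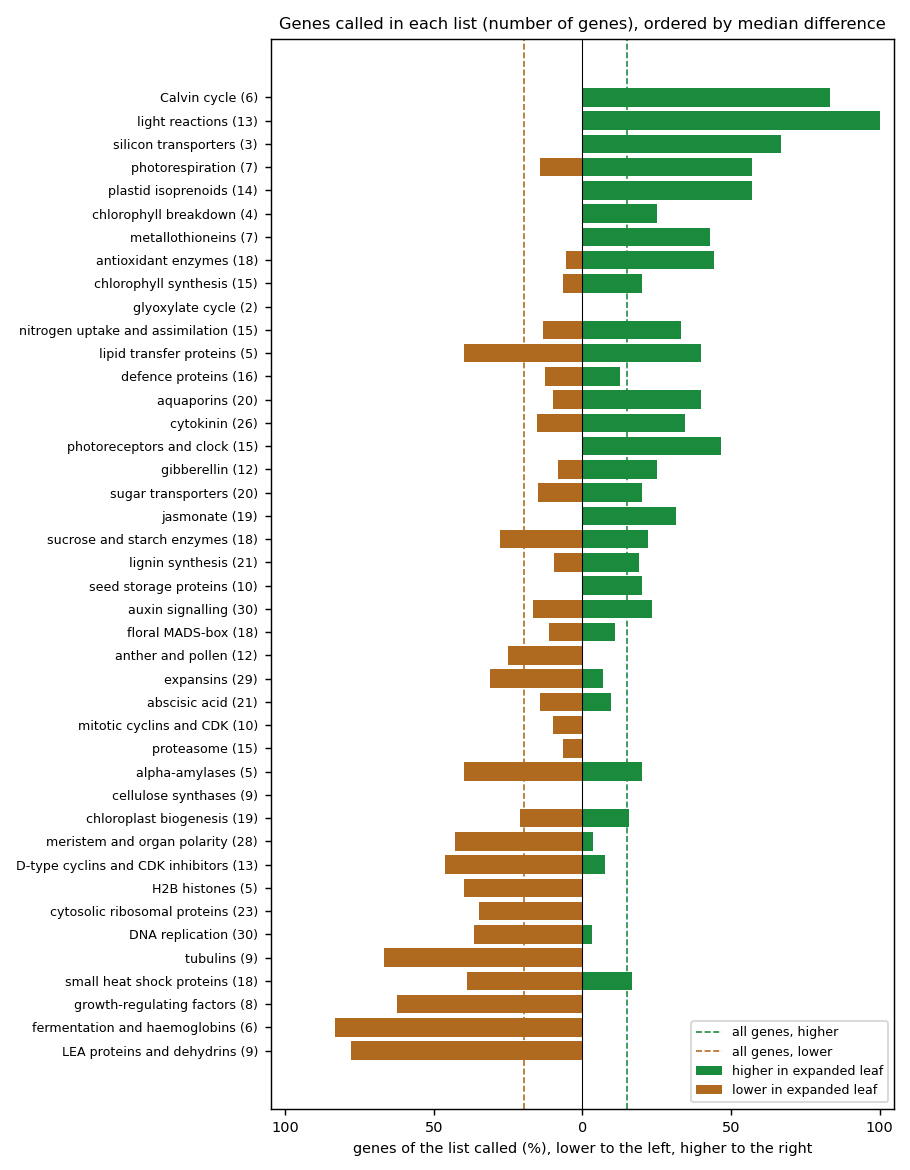
Share of the genes of each list (number of genes in brackets) that rose, to the right in green, or fell, to the left in brown, with dashed lines at the shares over all genes (15.1% and 19.8%). Lists are ordered by their median difference, from the Calvin cycle (5.77) at the top to LEA proteins and dehydrins (-5.54) at the bottom.

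Genes of the photosynthetic light reactions rose in the expanded leaf. All 13 on the list were called higher, with differences from 2.63 to 6.53 and a median of 4.45. PETE, which encodes plastocyanin, stood at 7.07, 7.01 and 7.08 in the primordium and 13.87, 13.12 and 13.76 in the expanded leaf, a difference of 6.53 (SE 0.22, adjusted p = 2.35e-05). The values within each age were close together and the ages did not overlap. CAB2R, a chlorophyll a/b binding protein of the light-harvesting antenna, stood at 5.28, 5.42 and 5.35 in the primordium and 13.55, 9.52 and 12.24 in the expanded leaf, a difference of 6.42 (SE 0.97, adjusted p = 0.00564). LFNR1, the leaf ferredoxin-NADP reductase, had the same low replicate 2, at 12.83, 9.52 and 12.44 in the expanded leaf. ADI1 rose by 5.64 and the antenna gene RCABP89 by 5.48. Replicate 1 of the expanded leaf was at least 2-fold above both others for 5 of the 13 genes, RCABP69 among them at 13.30, 8.31 and 9.69, and replicate 2 was at least 2-fold below both for 6.

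Of 6 Calvin cycle genes 5 were called higher and none lower. RBCS, the small subunit of Rubisco, stood at 7.18, 7.54 and 7.35 in the primordium and 14.57, 13.80 and 14.53 in the expanded leaf, a difference of 6.95 (SE 0.24, adjusted p = 2.81e-05). This probe set is of a type that may match other transcripts. Other RBCS probe sets rose by 4.20 and 2.65, and another was not called (0.62), so the size of the rise is not settled. ALDP, the plastid aldolase, rose by 5.81, FBPase by 5.74 on this probe set and the ribulose-phosphate epimerase RPE2 by 3.47. Another gene listed for the small subunit, RBCS1, stood at 5.02, 4.11 and 3.46 in the expanded leaf against 3.23, 3.35 and 3.07 and was not called (0.98, adjusted p = 0.146), but was called without replicate 3 (1.35, adjusted p = 0.0284). Photorespiration, which recovers carbon from the oxygenase reaction of Rubisco, was mixed. Of 7 genes 4 rose and 1 fell. The plastid glutamine synthetase GLN2 rose by 5.15 (SE 0.40, adjusted p = 0.0004), the glycolate oxidase GLO5 by 4.54, Fd-GOGAT, which returns photorespired nitrogen to glutamate, by 4.21, and GLO4 by 1.40. Another glycolate oxidase gene, GLO1, fell, from 12.11, 11.84 and 12.25 to 11.06, 10.74 and 10.22 (-1.39, adjusted p = 0.0101). A second probe set of GLO1 gave the opposite, a rise of 4.75 (adjusted p = 5.27e-05), so the direction of GLO1 is not settled and the list's fall rests on 1 probe set. GDCSH, a subunit of glycine decarboxylase, stood at 12.84, 7.99 and 11.20 in the expanded leaf and 7.35, 7.37 and 7.67 in the primordium, so that replicate 2 was close to the primordium, and it was not called (adjusted p = 0.115) but was called higher without replicate 2 (adjusted p = 0.00194).

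**Figure D3:**
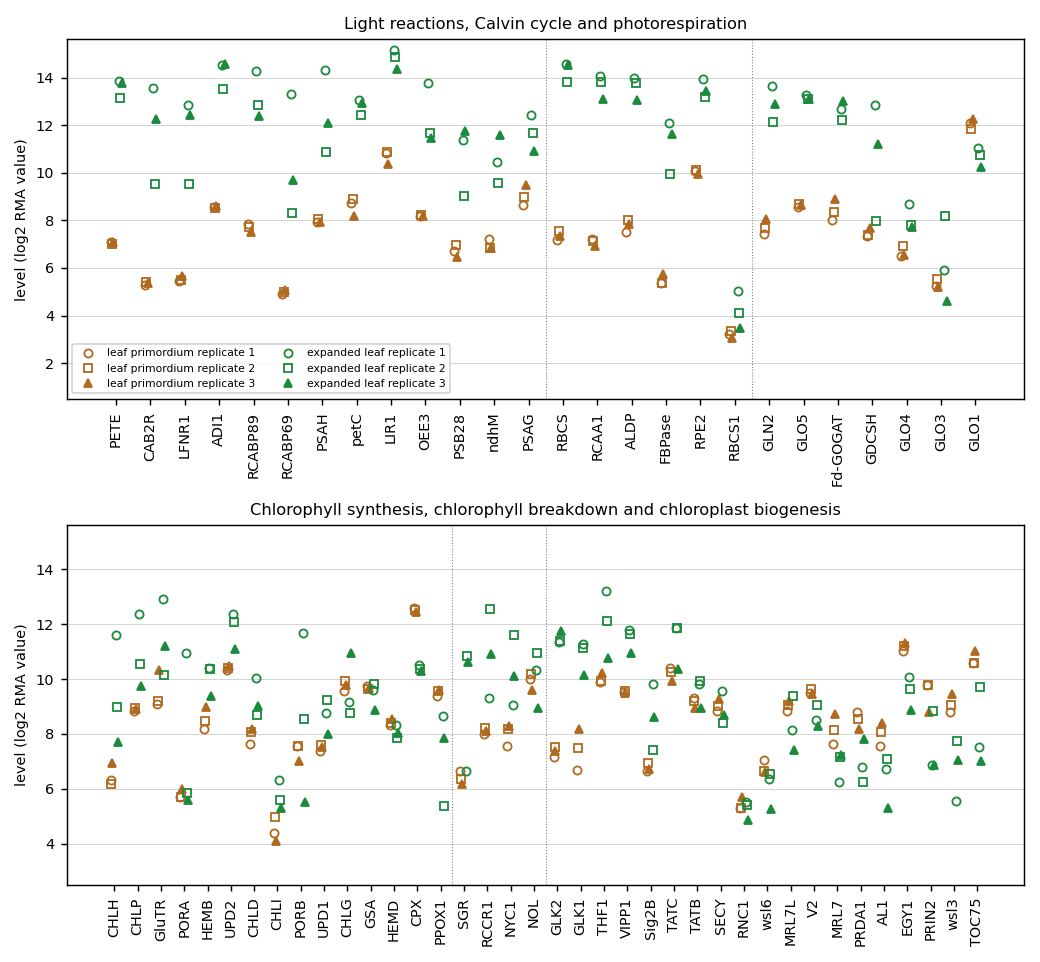
Levels (log2 RMA values, vertical axis) of the genes of 6 lists in each of the 6 leaf arrays, with the 3 primordium replicates in brown and the 3 expanded leaf replicates in green. In the upper panel the green symbols lie above the brown ones for each of the 13 genes of the light reactions, and in the lower panel the expanded leaf replicates are far apart for PORA, PORB and SGR.

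The enzymes that make chlorophyll differed widely among the expanded leaves. Of 15 genes 3 rose (20%) and 1 fell (6.7%), against 15.1% and 19.8% of all genes, with a median of 1.23. CHLH, the large subunit of magnesium chelatase, stood at 6.34, 6.18 and 6.93 in the primordium and 11.60, 8.97 and 7.70 in the expanded leaf, and its difference of 2.94 was not called (adjusted p = 0.084). The 3 expanded leaf values all lay above the primordium but were far apart, highest in replicate 1. A second CHLH probe set fell (-4.86, adjusted p = 0.000143), so the probe sets of CHLH disagree in direction. HEMB, UPD2 and UPD1, early enzymes of tetrapyrrole synthesis, rose by 1.50, 1.43 and 1.17. CPX, the coproporphyrinogen oxidase, fell, from 12.58, 12.53 and 12.43 to 10.51, 10.37 and 10.31, with no overlap (-2.12, adjusted p = 0.00014). GluTR, the glutamyl-tRNA reductase that starts the pathway, stood at 12.90, 10.14 and 11.20 against 9.09, 9.21 and 10.33 and was not called. PORA and PORB, the light-dependent protochlorophyllide reductases, were named after their values were seen. PORA stood at 10.96, 5.86 and 5.58 and PORB at 11.66, 8.54 and 5.51 in the expanded leaf, with primordium means of 5.79 and 7.37. Replicate 1 was thus above the primordium for both, and replicate 3 was below it. Without replicate 3, 6 genes of the list were called higher in place of 3, CHLH on its first probe set and CHLP among them (3.80 and 2.57). Without replicate 2 the calls of HEMB, UPD2 and UPD1 were lost. GluTR and CHLD were then called higher (2.51 and 1.57) and PPOX1 lower (-1.26), which made 2 rises and 2 falls.

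Of 14 genes for plastid isoprenoids, the source of carotenoids, tocopherol and the chlorophyll tail, 8 rose and none fell, with a median of 2.76. PSY1, the phytoene synthase that commits precursors to carotenoids, rose by 3.52 (SE 0.59, adjusted p = 0.00828). The tocopherol methyltransferase VTE4 rose by 3.51, and DXR, ISPG and ISPH of the plastid methylerythritol pathway by 3.44, 3.32 and 3.22. Levels of ISPG were 8.88, 8.99 and 9.41 in the primordium and 12.38, 12.21 and 12.65 in the expanded leaf, with little spread within either age. PSY2 and HPT1, a homogentisate prenyltransferase, were not called (1.42 and -0.22), and PSY2 was called higher without replicate 2 (2.05, adjusted p = 0.0316).

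Genes for building the chloroplast moved in both directions, at shares close to those over all genes. Of 19 genes 3 rose (15.8%) and 4 fell (21.1%), against 15.1% and 19.8% of all genes, with a median of -0.71. The transcription factors GLK2 and GLK1 rose. GLK2 stood at 7.15, 7.53 and 7.37 in the primordium and 11.33, 11.40 and 11.74 in the expanded leaf, a difference of 4.14 (SE 0.17, adjusted p = 4.62e-05), and GLK1 at 6.67, 7.47 and 8.17 in the primordium and 11.28, 11.15 and 10.15 in the expanded leaf (3.42, adjusted p = 0.00372). VIPP1, needed for thylakoid upkeep, rose by 1.94. On the other side, the envelope import channel TOC75 fell from 10.58, 10.60 and 11.03 to 7.53, 9.72 and 7.02 (-2.65, adjusted p = 0.0416). It was followed by wsl3, needed for plastid transcription (-2.33), the plastid protease EGY1 (-1.66) and PRDA1 (-1.55), of which another probe set rose (2.02, adjusted p = 0.000366). The calls of TOC75 and wsl3 were lost without replicate 3 (adjusted p = 0.0779 and 0.0527). The call of PRDA1 was lost without replicate 2. The list gave 5 rises and 3 falls without replicate 3 and 4 rises and 7 falls without replicate 2.

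Chlorophyll breakdown was uneven across the 3 expanded leaves. SGR, the magnesium dechelatase known as stay-green, stood at 6.66, 10.85 and 10.63 there and 6.66, 6.34 and 6.19 in the primordium, so replicate 1 was at the primordium's level. RCCR1, the red chlorophyll catabolite reductase, rose (2.82, adjusted p = 0.0474), at 9.33, 12.54 and 10.92, a call lost without replicate 3 (adjusted p = 0.0929). NYC1, a chlorophyll b reductase, stood at 9.06, 11.60 and 10.10 against 7.58, 8.16 and 8.29 and missed the threshold (2.24, adjusted p = 0.0537), and its relative NOL was not called either (0.15). Replicate 2 held the highest of the 3 expanded leaf values for each of the 4 genes, and NYC1 was called higher without it (adjusted p = 0.0363).

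Of 18 genes of sucrose and starch enzymes 4 rose (22.2%) and 5 fell (27.8%), with a median of 0.22. The shares over all genes were 15.1% and 19.8%. SUS1, a sucrose synthase, which cleaves sucrose in importing tissue, stood at 12.38, 12.72 and 13.04 in the primordium and 5.88, 5.70 and 5.91 in the expanded leaf, a difference of -6.88 (SE 0.19, adjusted p = 1.46e-05). SUS3 and SUS5 fell too (-3.78 and -2.32), as did the starch synthase SSS1 (-2.40) and the disproportionating enzyme DPE1 (-1.98). Rising were the starch branching enzyme SBE1 (1.99), the starch synthase SSII-2 (1.85), the sucrose phosphate synthase SPS4F (1.25) and the ADP-glucose pyrophosphorylase AGPS2 (1.10). SUS2 stood at 11.80, 12.12 and 10.11 against 12.69, 13.12 and 13.38 and was not called (-1.72, adjusted p = 0.0764), but was called lower without replicate 3 (adjusted p = 0.0308) or without replicate 2 (adjusted p = 0.0394). The call of SSII-2 was lost without replicate 3, and the list gave 8 falls without replicate 2.

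Sugar transporters gave 4 rises and 3 falls among 20 genes (20% and 15%), near the 15.1% and 19.8% of all genes. The monosaccharide transporter MST3 stood at 4.85, 4.82 and 4.85 in the primordium and 10.77, 11.41 and 11.20 in the expanded leaf, a difference of 6.29 (SE 0.19, adjusted p = 1.58e-05), with every expanded leaf array far above the primordium. SWEET2B rose by 5.08, SWEET14 by 4.04 and the triose phosphate translocator TPT, which exports the products of photosynthesis from the chloroplast, by 3.70. SWEET11, SWEET15 and SWEET4 fell (-3.26, -3.11 and -1.72). SWEET11 values were tight, at 7.61, 8.01 and 7.95 in the primordium and 4.57, 4.59 and 4.63 in the expanded leaf. SUT1, the sucrose transporter of phloem loading, stood at 10.29, 7.24 and 10.14 against 6.88, 6.90 and 6.57 and was not called (2.44, adjusted p = 0.0923). Replicate 2 lay near the primordium, and SUT1 was called higher without it (3.43, adjusted p = 0.000198).

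Among 15 genes of nitrogen uptake and assimilation 5 rose and 2 fell. The cytosolic glutamine synthetase gene GLN1-2 stood at 5.26, 4.73 and 4.98 in the primordium and 11.44, 10.66 and 11.30 in the expanded leaf, a difference of 6.15 (SE 0.25, adjusted p = 4.55e-05). Another such gene, GLN1-3, fell, to 5.54, 5.71 and 5.11 from 7.27, 7.78 and 7.72 (-2.14, adjusted p = 0.00128), and GLN1-1 changed by -0.87, under 2-fold. The ammonium transporters AMT1-1 and AMT2-1 rose by 5.91 and 3.63, while AMT3-1 fell (-1.05). The nitrate reductase NIA1 was not called, at 9.22, 8.31 and 12.94 in the expanded leaf and 9.04, 9.10 and 9.23 in the primordium, with replicate 3 alone far above.

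Of 15 genes of light sensing and the clock 7 rose and none fell. Osnph1a stood at 3.80, 3.41 and 3.31 in the primordium and 11.86, 12.36 and 11.12 in the expanded leaf, and its relative Osnph1b rose by 4.81 (SE 0.32, adjusted p = 0.000231). GI, the rice GIGANTEA of the clock and of flowering time, rose by 3.43, the haem oxygenase HO1, which makes the phytochrome chromophore, by 3.17, and CCA1, PRR37 and PRR73 of the clock by 1.73, 1.68 and 1.10. The phytochrome gene PHYA was not called (-0.15), nor was PRR95 (-0.20). PRR1, also of the clock, stood at 6.30, 7.04 and 9.60 against 9.46, 9.59 and 9.90, and was called lower without replicate 3 (-2.98, adjusted p = 0.00146) but not with it (adjusted p = 0.16). The hour at which tissue was taken is not given in the labels.

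Genes known from low oxygen fell. Of 6 genes of fermentation and haemoglobins 5 fell and none rose, with a median of -4.34. After PDC1 came the non-symbiotic haemoglobins, NSHB2 at 13.06, 12.61 and 12.88 in the primordium and 6.55, 6.99 and 8.32 in the expanded leaf (-5.57, adjusted p = 0.000516) and NSHB1 at 12.86, 12.44 and 12.93 in the primordium and 8.01, 7.59 and 8.06 in the expanded leaf (-4.86, adjusted p = 4.72e-05). All 3 expanded leaf values of both lay far below all primordium values. The alcohol dehydrogenase Adh2 and PDC2 fell (-3.83 and -2.79), while PDC3 was not called (0.15). Of 5 alpha-amylases AMY1.3 and AMY1.4 (-1.12) fell, AMY1.5 rose at low values (3.32, 3.13 and 3.18 to 4.26, 4.44 and 4.37), and AMY1.2 and AMY1.1 were not called (-0.04 and -0.60).

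Genes for LEA proteins and dehydrins, known from maturing embryos, were high in the primordium. Of 9 genes for LEA proteins and dehydrins, which protect drying seed tissue, 7 fell in the expanded leaf and none rose, with a median of -5.54. EM stood at 13.99, 13.88 and 14.04 in the primordium and 6.31, 6.23 and 7.12 in the expanded leaf, a difference of -7.42 (SE 0.26, adjusted p = 2.69e-05). RAB16C and RAB16D were also low, at 7.79, 6.57 and 7.62 and 5.86, 6.20 and 6.89 in the expanded leaf and differences of -5.59 and -5.18. For 6 of the 9 genes replicate 3 lay at least 2-fold above both others. LEA19 stood at 13.46, 13.52 and 13.71 in the primordium and 5.15, 5.72 and 11.27 in the expanded leaf, a difference of -6.19 (SE 1.59, adjusted p = 0.0397) with all arrays and -8.13 without replicate 3 (adjusted p = 5.34e-05). RAB16B gave -6.84 with all arrays and -8.70 without replicate 3. RAB25 stood at 5.85, 5.00 and 10.20 and PM19L1 at 5.86, 4.32 and 7.95, again highest in replicate 3. RAB21, at 13.11, 13.11 and 13.05 in the primordium and 6.62, 5.50 and 11.91 in the expanded leaf, was not called (adjusted p = 0.0777) but was called lower without that replicate (adjusted p = 0.0002), which made 8 falls of 9. Without replicate 2 the calls of LEA19 and RAB25 were lost (adjusted p = 0.0847 and 0.0669). The dehydrin Dhn1 was not called and was at 10.74, 9.42 and 12.49, in replicate 3 above the primordium's 11.31, 11.10 and 11.31. In stamens RAB21 stood at 8.51 to 12.93 and Dhn1 at 11.74 to 12.47, while EM stood at 6.24 to 7.72.

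A regulator of seed maturation fell too. VP1, the transcription factor of abscisic acid response in embryos, stood at 8.85, 9.18 and 8.86 in the primordium and 3.33, 3.07 and 3.22 in the expanded leaf, a difference of -5.75 (SE 0.15, adjusted p = 1.1e-05). Among 21 genes of abscisic acid synthesis and signalling 3 fell (14.3%) and 2 rose (9.5%), both below the 19.8% and 15.1% of all genes. PP2C51, a phosphatase of the receptor pathway, fell from 11.03, 11.20 and 11.43 to 4.90, 4.92 and 5.33 (-6.17, adjusted p = 1.57e-05), and the kinase SAPK10 fell (-2.53), while SAPK6 and SAPK4 rose (1.69 and 1.23). The bZIP factor TRAB1 was not called (0.03), nor was the kinase SAPK1 (-0.58). In this list replicate 3 of the expanded leaf was at least 2-fold above both others for 6 genes, and 6 genes fell without it in place of 3, the phosphatase PP2C08 among them (-5.03, adjusted p = 0.00021). Among 10 seed storage protein genes none fell, and GLUA-2 and GLB1, a glutelin and a globulin, rose, GLUA-2 from 6.94, 7.19 and 6.78 to 10.50, 10.40 and 9.99 (3.33, adjusted p = 0.00014) and GLB1 by 3.17. The other 8 had differences between 0.03 and 0.28 and were not called. A second probe set of GLUA-2 was not called either (-0.30, adjusted p = 0.679), so its rise rests on 1 probe set. GLB1 stood at 9.42 to 10.94 in stamens.

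Small heat shock proteins, chaperones that also accumulate in maturing seeds, gave 7 falls and 3 rises among 18 genes with a median of -1.28. HSP23.2 stood at 11.57, 11.03 and 9.92 in the primordium and 3.10, 3.05 and 3.12 in the expanded leaf, with the expanded leaf close to the bottom of the scale in all replicates. HSP16.9A, HSP26.7, HSP18.6 and HSP18.0 fell (-5.75, -5.74, -5.30 and -3.73). HSP17.9B rose from 7.70, 7.42 and 7.36 to 11.45, 10.69 and 11.27 (3.64, adjusted p = 0.00019), HSP16.0 by 2.50 and HSP18.8 by 1.69. HSP17.9A and HSP24.1 were not called (-1.58 and -0.97). Replicate 3 was at least 2-fold above both other expanded leaves for 5 of the 18. Without replicate 2 the call of HSP18.8 was lost and HSP17.9A was called lower (-2.15).

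Growth-regulating factors, which keep leaf cells dividing, were high in the primordium. Of 8 genes 5 fell, none rose, and the median was -3.99. GRF6 stood at 12.82, 13.14 and 13.31 in the primordium and 5.37, 5.63 and 5.42 in the expanded leaf, a difference of -7.61 (SE 0.17, adjusted p = 7.5e-06), followed by GRF1 (-5.72), GRF8 (-5.37), GRF4 (-4.56) and GRF10 (-3.43). In each of these 5 all expanded leaf values lay below all primordium values. GRF11 was level at 11.07, 11.12 and 11.47 in the primordium and 11.35, 11.63 and 10.94 in the expanded leaf (0.09, adjusted p = 0.847), and GRF7 was high in expanded leaf replicate 2 alone (5.60, 9.04 and 6.19), and was called lower without it (-2.11). Their coactivator MAKIBA3, given above, fell as well.

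D-type cyclins and inhibitors of cyclin-dependent kinases gave 6 falls and 1 rise among 13 genes. CYCD4-1 stood at 9.12, 9.60 and 9.39 in the primordium and 4.83, 4.89 and 5.71 in the expanded leaf, a difference of -4.23 (SE 0.28, adjusted p = 0.000219), and CYCD2-2, CYCD5-3 and CYCD4-2 fell too (-4.09, -2.63 and -2.63). The inhibitors went both ways. KRP1 rose from 3.82, 3.73 and 3.88 to 9.79, 9.56 and 9.44 (5.79, adjusted p = 9.06e-06), whereas KRP5 fell from 11.57, 11.55 and 11.12 to 5.53, 6.40 and 5.44 (-5.63, adjusted p = 9.61e-05), as did KRP6 (-3.78). KRP4 and CYCD5-2 were not called (-0.20 and 0.84), and CYCD5-2 was called higher without replicate 2 (1.08, adjusted p = 0.0155).

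Mitotic cyclins were low at both ages. Of 10 mitotic cyclins and related genes 1 fell and none rose, with a median of -0.37. CYCB1-1, the cyclin of entry to mitosis, stood at 4.26, 4.34 and 5.06 in the primordium and 4.09, 3.71 and 4.56 in the expanded leaf, while it was at 10.64 to 11.72 over the 15 stamen arrays. CYCB2-1 gave 4.90, 5.11 and 4.25 and 4.89, 4.65 and 4.80, and 9.32 to 11.05 in stamens. For both cyclins every leaf array, primordium included, lay below every stamen array, a difference that was not tested. Both were named outside the rules for naming genes. The median level of the list was 5.24 to 5.92 over the primordium arrays and 9.68 to 10.71 over the stamen arrays. The gap was smaller for CYCA1-4, at 6.78, 7.05 and 7.20 in the primordium and 7.67 to 8.33 in stamens. CenH3, the centromere histone, was the gene that fell, from 8.29, 7.86 and 7.39 to 4.80, 5.92 and 6.20 (-2.21, adjusted p = 0.0135). CKS1 and CYCA1-4 were not called (-0.82 and -0.21), and CKS1 was called lower without replicate 2 (-1.48). The list gave 2 falls without replicate 3 or without replicate 2.

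DNA replication genes gave 11 falls and 1 rise among 30 genes and a median of -1.10. RPA70C and RPA32C, subunits of the single-strand binding protein RPA, fell (-4.20 and -3.53), RPA32C from 8.38, 8.53 and 8.66 to 5.14, 4.99 and 4.85. The polymerase delta subunit POLD2 stood at 8.18, 8.41 and 8.70 in the primordium and 5.25, 5.55 and 5.40 in the expanded leaf, a difference of -3.03 (SE 0.18, adjusted p = 0.000141). ORC1, which marks replication origins, and RFC4, a clamp loader subunit, changed by -2.91 and -2.77. RPA14, another RPA subunit, rose (1.66, adjusted p = 0.00513). PCNA, the sliding clamp, stood at 8.60, 10.06 and 4.97 in the expanded leaf against 11.00, 11.05 and 10.68, with replicate 3 alone far down, and was not called (-3.04, adjusted p = 0.155), but was called lower without replicate 2 (adjusted p = 0.0387). MCM3 and MCM5 of the replicative helicase, chosen after their values were seen, stood at 4.59, 4.47 and 5.53 and at 4.28, 4.92 and 6.02 in the primordium, and at 10.20 to 11.58 and 9.55 to 10.76 in stamens. Not all genes of the list shared this order. RPA70C had a primordium mean of 10.08 and stood at 8.37 to 9.80 in stamens. The primordium values of PCNA lay within its 10.38 to 12.49 of stamens. The median level of the list was 7.90 to 8.26 over the primordium arrays and 9.41 to 10.31 over the stamen arrays, a difference that was not tested.

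Of 9 tubulin genes 6 fell and none rose (2 rose without replicate 2), TUB2 from 11.38, 11.52 and 10.80 to 6.53, 6.95 and 7.11 (-4.37, adjusted p = 0.000139), with TUB1 and TUB4 next (-2.74 and -2.59). Cytosolic ribosomal proteins gave 8 falls of 23 with a median of -0.97. RPL5A stood at 12.72, 12.58 and 12.66 in the primordium and 10.29, 11.74 and 9.97 in the expanded leaf (-1.99, adjusted p = 0.0266) and 60SP0, an acidic stalk protein, at 12.50, 12.49 and 12.36 in the primordium and 9.88, 11.68 and 10.89 in the expanded leaf (-1.64, adjusted p = 0.0449). Expanded leaf replicate 2 was nearest to the primordium in both. The count of falls was 4 without replicate 3, where 60SP0 lost its call, and 12 without replicate 2. Of 5 H2B histones H2B.10 and H2B.7 fell (-2.11 and -1.25), while H2B.11, H2B.5 and H2B.6 were not called (-0.96, 0.39 and 0.04). Without replicate 3 H2B.7 lost its call and H2B.11 was called lower. Of 15 proteasome genes RPN7 fell (-1.47, adjusted p = 0.000693) and the rest were not called (2 falls without replicate 2), with a median of -0.47.

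**Figure D4:**
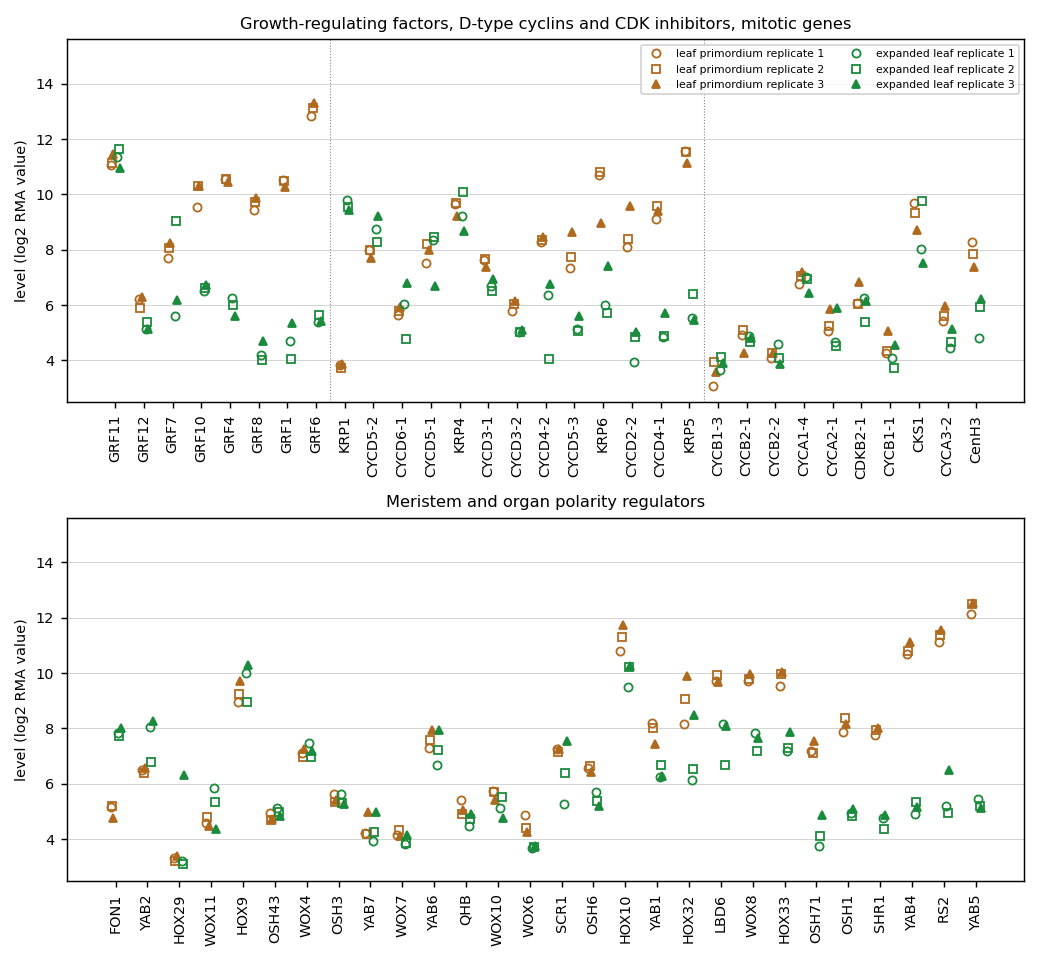
Levels (log2 RMA values, vertical axis) of growth, cell cycle and organ polarity genes in each of the 6 leaf arrays, with primordium replicates in brown and expanded leaf replicates in green. GRF6, YAB5, YAB4 and RS2 stand above 10 in all primordium arrays and below 7 in all expanded leaf arrays, and KRP1 shows the opposite order.

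Of 28 regulators of meristems and organ polarity 12 fell and FON1, a receptor kinase of the floral meristem, rose (2.83, adjusted p = 0.000157). YAB5 stood at 12.13, 12.50 and 12.55 in the primordium and 5.46, 5.19 and 5.14 in the expanded leaf, a difference of -7.13 (SE 0.17, adjusted p = 9.06e-06), and YAB4 at 10.68, 10.80 and 11.11 in the primordium and 4.90, 5.34 and 5.18 in the expanded leaf, a difference of -5.73. RS2, a repressor of KNOX genes in leaf primordia, fell from 11.11, 11.36 and 11.55 to 5.20, 4.93 and 6.52 (-5.80, adjusted p = 0.000337). The KNOX genes OSH1 and OSH71 fell as well. OSH1 stood at 7.88, 8.37 and 8.17 in the primordium and 4.96, 4.83 and 5.09 in the expanded leaf (-3.18, adjusted p = 9.93e-05), and OSH71 changed by -3.02. SHR1, a GRAS regulator of cell layers, fell to 4.77, 4.37 and 4.88 (-3.23). HOX9, of the class that sets the upper leaf side, was not called (0.46), while its relatives HOX33 and HOX10 fell (-2.41 and -1.30).

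Floral MADS-box genes, markers of flower tissue, were mostly low at both leaf ages. Of 18 genes 2 rose and 2 fell (11.1% each, against 15.1% and 19.8% of all genes), with a median of 0.11. OsMADS16, a B-class gene of stamen identity, stood at 5.28, 4.77 and 5.64 in the primordium and 8.21, 7.52 and 8.68 in the expanded leaf, a difference of 2.91 (SE 0.36, adjusted p = 0.00247), and at 12.83 to 13.20 in stamens. OsMADS18 rose by 1.23, a call lost without replicate 3 (adjusted p = 0.072). OsMADS2 fell from 9.33, 9.32 and 9.02 to 5.87, 5.60 and 7.46 (-2.91, adjusted p = 0.00851) and OsMADS17 from 7.95, 8.40 and 8.38 to 5.87, 5.84 and 6.26 (-2.26, adjusted p = 0.000601). OsMADS58, the C-class gene that the study's title names, stood at 4.44, 4.64 and 4.42 in the primordium and 5.76, 6.29 and 10.04 in the expanded leaf, where replicate 3 came close to the 10.27 to 11.32 of stamens. It was not called with all arrays (2.86, adjusted p = 0.134) and was called higher without replicate 3 (1.53, adjusted p = 0.00547). OsMADS8 and OsMADS3 changed by 0.77 and 0.59, under 2-fold, and OsMADS4 by -0.80. The 10 further genes (OsMADS1, 5, 6, 7, 13, 14, 15, 21, 29 and 34) had differences of -0.13 to 0.48 and were not called. Of 12 anther and pollen genes none rose, and TDL1A, MEL1 and CP1 fell (-1.85, -1.55 and -1.44). DTM1 and MSP1 were not called (0.53 and -0.98), and MSP1 was called lower without replicate 3 (-1.38).

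Cytokinin genes gave 9 rises and 4 falls among 26. LOGL5, of the LOG family that releases active cytokinin, stood at 5.27, 5.72 and 5.86 in the primordium and 11.42, 10.39 and 11.53 in the expanded leaf, a difference of 5.50 (SE 0.34, adjusted p = 0.000185), and its relatives LOGL3, LOGL9 and LOG rose by 3.53, 3.41 and 3.17. The type-A response regulator RR9 rose by 2.63. Against this, CKX5, a cytokinin oxidase, fell (-2.77), as did the response regulator RR6 (-2.19) and the LOG-like genes LOGL1 and LOGL6 (-2.15 and -1.20). Auxin genes gave 7 rises and 5 falls among 30 (23.3% and 16.7%, against 15.1% and 19.8% of all genes). The repressor IAA10 rose by 3.21 (SE 0.17, adjusted p = 9.71e-05), IAA25 by 2.77 and IAA23 by 2.40, and the response factors ARF22 and ARF7 by 2.02 and 1.52. IAA26, IAA30 and IAA9 fell, IAA26 from 9.32, 9.23 and 9.30 to 5.24, 4.99 and 4.96, with differences of -4.22, -3.70 and -3.64, and ARF17 and IAA31 fell too (-1.98 and -1.95). IAA3 and IAA21 were not called (1.34 and 0.35). The call of IAA23 was lost without replicate 3, those of ARF17 and LOGL1 without replicate 2, and IAA3 was called higher without replicate 2 (1.77).

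Gibberellin genes gave 3 rises and 1 fall among 12 (25% and 8.3%, against 15.1% and 19.8% of all genes). CPS1, the first enzyme of gibberellin synthesis, stood at 3.41, 3.50 and 3.46 in the primordium and 7.09, 6.40 and 5.93 in the expanded leaf, a difference of 3.02 (SE 0.29, adjusted p = 0.001), OsKO1, a kaurene oxidase, rose by 2.66, and the transcription factor GAMYB by 1.46. SLRL1, a DELLA-like repressor, fell (-2.01, adjusted p = 0.00142). The receptor GID1 was not called (-0.58). The call of GAMYB was lost without replicate 3 or without replicate 2, and the list gave 3 falls without replicate 2. Jasmonate genes gave 6 rises and no fall among 19. AOS2, an allene oxide synthase of jasmonate synthesis, stood at 4.73, 4.61 and 4.25 in the primordium and 7.31, 8.70 and 7.30 in the expanded leaf, a difference of 3.24 (SE 0.41, adjusted p = 0.00277), followed by OPR1 (2.48), AOC3 (1.79), JAZ4 (1.78) and OPR13 (1.26). The repressor JAZ7 was not called (-1.55), but was called lower without replicate 3 (-1.93, adjusted p = 0.0178) and without replicate 2 (-1.07, adjusted p = 0.0235). AOC3 lost its call without replicate 3. For 8 of the 19 genes replicate 2 lay at least 2-fold below both other expanded leaves.

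Expansins, which loosen growing walls, gave 9 falls and 2 rises among 29 (4 rises without replicate 2). EXPA7 stood at 12.64, 12.60 and 12.93 in the primordium and 6.23, 5.96 and 6.55 in the expanded leaf, a difference of -6.48 (SE 0.19, adjusted p = 1.62e-05), followed by EXPA5 (-5.26), EXPA16 (-3.24), EXLA2 (-2.97) and EXPA29 (-2.57). EXPB3 and EXPA2 rose, EXPB3 from 4.70, 5.16 and 5.11 to 11.37, 9.56 and 10.68 (5.55, adjusted p = 0.000517) and EXPA2 by 3.30. EXLA1 changed by 0.81 and EXPB4 was not called (-1.38). Of 9 cellulose synthases none was called with all arrays. CESA1, CESA5 and CESA6, named after their values were seen, form the complex of primary walls in rice and were high in replicate 3 and low in replicate 2. CESA5 stood at 10.29, 10.59 and 10.60 in the primordium and 7.73, 5.71 and 10.17 in the expanded leaf, and CESA6 at 10.51, 10.91 and 11.95 in the primordium and 8.44, 6.22 and 11.08 in the expanded leaf. Replicate 3 was near the primordium and replicate 2 far below it, and without replicate 3 both genes were called lower (-3.77 and -3.79). Lignin synthesis gave 4 rises and 2 falls among 21 (19.0% and 9.5%, against 15.1% and 19.8% of all genes). CAD3, a cinnamyl alcohol dehydrogenase gene, and 4CL3, a coumarate ligase gene, rose by 4.17 and 4.16, while CCR1, a cinnamoyl-CoA reductase, fell from 11.39, 11.20 and 10.02 to 4.92, 5.10 and 4.75 (-5.94, adjusted p = 0.000188), as did CAD7 (-5.57). CAD1 changed by 0.61, under 2-fold.

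Of 5 lipid transfer proteins LTP2-B (5.29, 5.51 and 5.52 to 11.93, 12.68 and 13.05) and LTP (5.95, adjusted p = 2.31e-05) rose, LTP-2 and LTP110-A fell (-4.92 and -3.41), and LTPL1 was not called (1.00). Silicon, which rice deposits in its blades, is carried by Lsi6, Lsi1 and Lsi2. Lsi6, the channel that unloads silicon in leaves, stood at 4.40, 4.56 and 4.28 in the primordium and 9.84, 9.36 and 11.83 in the expanded leaf, a difference of 5.93 (SE 0.62, adjusted p = 0.00136). Lsi1, known as the uptake channel of roots, rose (3.33, adjusted p = 0.0321), a call lost without replicate 3 (adjusted p = 0.0537), and the efflux transporter Lsi2 stayed at 3.93, 3.80 and 4.30 (-0.12). Aquaporins gave 8 rises and 2 falls among 20. PIP2-2, a plasma membrane water channel, stood at 4.65, 4.73 and 4.43 in the primordium and 12.20, 9.02 and 12.60 in the expanded leaf, a difference of 6.67 (SE 0.93, adjusted p = 0.00403), with replicate 2 lowest. PIP2-7 and PIP1-3 shared that order, at 12.19, 7.69 and 11.84 and 9.54, 6.33 and 11.78 in the expanded leaf, and PIP1-2 and PIP2-4 rose by 2.10 and 1.94. TIP3-1 stood at 11.54, 11.45 and 11.04 in the primordium and 4.43, 4.08 and 4.17 in the expanded leaf (-7.11, adjusted p = 1.1e-05), and TIP3-2 fell as well (-1.48). PIP2-1 and PIP1-1 changed by -0.16 and 0.99, under 2-fold, and PIP1-1 was called higher without replicate 2 (1.04).

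Enzymes against oxidative damage rose in 8 of 18 cases and fell in 1, with a median of 1.42. CatA, the catalase, stood at 5.21, 4.94 and 4.64 in the primordium and 12.61, 11.45 and 11.89 in the expanded leaf, a difference of 7.05 (SE 0.32, adjusted p = 6.3e-05), and the chloroplast ascorbate peroxidase APX8 at 5.88, 5.88 and 5.67 in the primordium and 12.64, 10.23 and 11.44 in the expanded leaf (5.62, adjusted p = 0.00123). Next were cdsp32 (4.81 on this probe set), APX4 (2.53) and the peroxiredoxin PRXIIC (1.79). The superoxide dismutase SODCC.2 fell (-1.09, under 2-fold without replicate 3), while the catalase CatB and the superoxide dismutase sodA were not called (-0.26 and 0.31). Metallothioneins gave 3 rises among 7, with MT2B at 13.54, 11.64 and 13.98 and MT1A at 12.84, 13.05 and 12.89 in the expanded leaf. MT2B rose by 5.88, MT1A by 3.49 and MT4A by 2.99, the last a call lost without replicate 3. MT2A and MT2C were not called (-0.11 and -1.56), and for MT2C replicate 2 stood apart at 7.01 against 13.08 and 11.01. Defence proteins gave 2 rises and 2 falls among 16 (12.5% each, against 15.1% and 19.8% of all genes). They gave 5 rises without replicate 3 or without replicate 2. The chitinases Cht11 and Cht5 rose (5.22 and 1.56), while RIXI, a xylanase inhibitor, fell from 9.74, 8.74 and 8.37 to 3.95, 3.82 and 3.67 (-5.14, adjusted p = 0.000263), as did WRKY9 (-1.37). WRKY71 and WRKY51 were not called (0.24 and -0.67).

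Since the labels name the 3 expanded leaf samples alike, the genes in which replicate 3 departs from both others are described here with no test. Furthest above were LEA and dehydrin genes. RAB21 stood at 4.36, 4.08 and 11.05 on the probe set that led, RAB16B at 4.22, 4.22 and 9.81, LEA19 at 5.15, 5.72 and 11.27 and RAB25 at 5.85, 5.00 and 10.20. With them were CM-LOX1, a lipoxygenase (4.39, 4.06 and 8.96), JAZ8, a jasmonate-induced repressor (5.72, 4.34 and 10.05), the heat stress transcription factor HSF11 (5.29, 5.35 and 9.65), NAS3, a nicotianamine synthase (4.66, 3.48 and 9.03), and ELA3 (4.81, 4.20 and 9.01). For RAB21, RAB16B, LEA19 and RAB25 the primordium mean was higher still (12.13, 12.92, 13.56 and 12.16), while for CM-LOX1 it was below all 3 expanded leaf values (2.76). For NAS3 the primordium mean of 3.47 was level with expanded leaf replicate 2. Furthest below were NAAT1, a nicotianamine aminotransferase (10.64, 11.87 and 5.99), the zinc finger genes OsC3H54 (11.74, 10.06 and 5.51) and OsC3H35 (11.88, 11.72 and 8.26), the kinase CIPK14 (10.49, 11.63 and 6.54), the TCP factor PCF8 (8.60, 8.91 and 4.85), PCNA (8.60, 10.06 and 4.97), the cytokinin oxidase CKX11 (10.01, 10.39 and 6.39), BBD2 (13.02, 12.70 and 9.10) and GLT2 (8.48, 7.92 and 4.63).

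Replicate 2 differed from the others in another direction. The 2 enzymes of the glyoxylate cycle, which turns stored fat into sugar in seedlings and recycles lipids in ageing leaves, were high in it alone. ICL, the isocitrate lyase, stood at 4.83, 5.99 and 6.96 in the primordium and 4.41, 12.44 and 4.09 in the expanded leaf, and MS, the malate synthase, at 6.27, 7.46 and 7.29 in the primordium and 5.37, 12.39 and 7.21 in the expanded leaf. Neither was called (adjusted p = 0.816 and 0.684), and the primordium values lay well below that of replicate 2. In the same array RCCR1 and NYC1 were highest, the aquaporins PIP2-2, PIP2-7 and PIP1-3 were lowest, and JAZ13 and JAZ10 were far below the other leaves (10.88, 4.60 and 10.19 and 12.08, 6.67 and 11.83). Replicate 2 was also the expanded leaf array nearest to the primordium, at 0.824 to 0.836 against 0.798 to 0.813 for the other two.

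**Figure D5:**
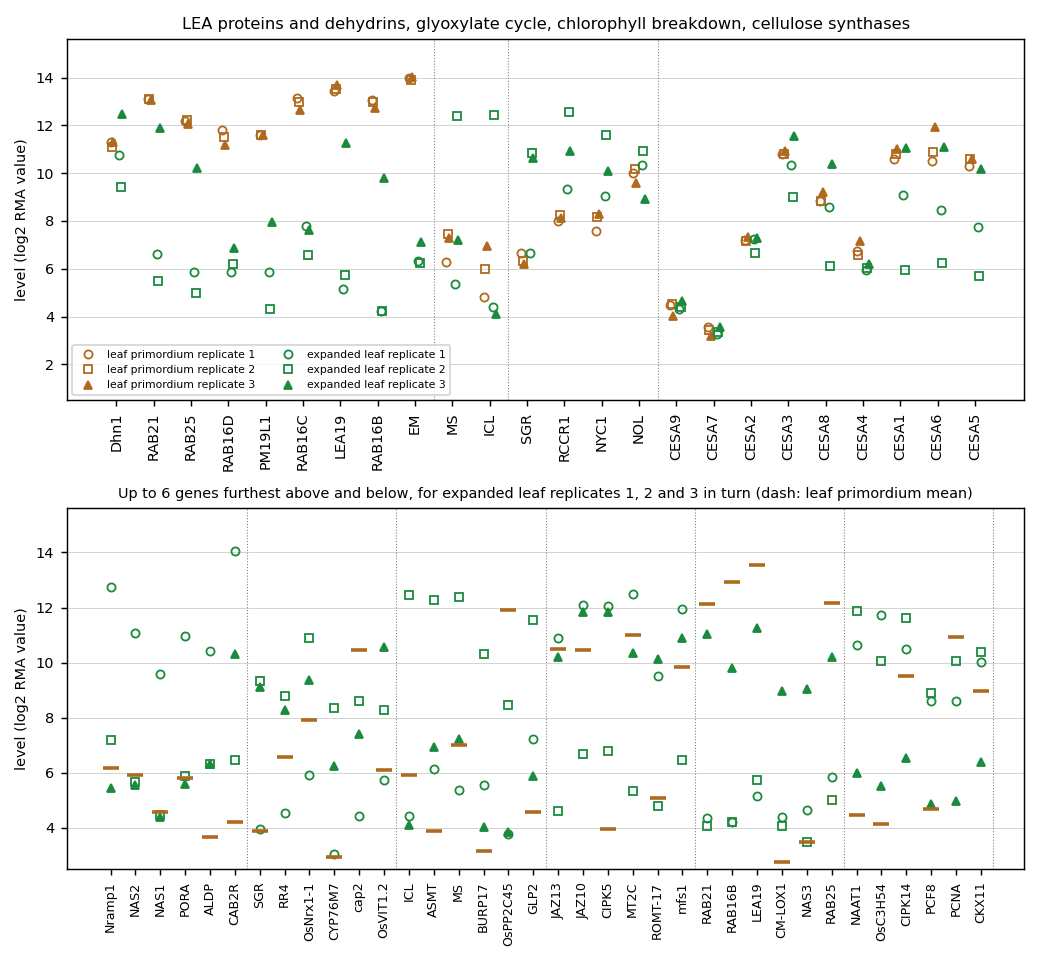
Levels (log2 RMA values, vertical axis) in the 6 leaf arrays for 4 gene lists (upper panel) and, for expanded leaf replicates 1, 2 and 3 in turn, up to 6 named genes furthest above and then below both other replicates (lower panel, where the dash is the leaf primordium mean). Replicate 3 is highest for RAB21, LEA19 and RAB16B, replicate 2 for ICL and MS, and replicate 1 for Nramp1, NAS2 and NAS1.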

How the data were processed

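The study hybridized amplified RNA to Affymetrix rice arrays, and the authors deposited 1 table of log2 values, made with RMA per the submitters' processing notes (version not given in the sources used here). RMA normalizes all arrays together, so levels are relative. After 123 control probe sets were left out, 57258 were tested with limma 3.58.1 in R 4.3.3 on the 6 leaf arrays, 3 against 3, with no covariate. Their number limits the precision. The fit was tested on simulated data with known changes. With unequal spread in the 2 groups, 50 of 100 changes of 1.5 and 84 of 100 changes of 3 were recovered, with 29 false calls. With equal spread these numbers were 48, 79 and 8. With unequal spread, false calls made up a larger share of all calls than the adjusted p threshold is set to allow. Spread was unequal in the leaf arrays, where 22.2% of probe sets spanned over 2-fold in the expanded leaf and 5.25% in the primordium. The simulated data held only 100 changes of each size among 57258 probe sets, against 10164 calls here. The rates of recovery and false calls therefore cannot be carried over to the leaf arrays. Probe sets were named from the platform annotation and a gene table of assembly ASM3414082v1, used for names alone: 22436 had 1 gene, 95 had several and 34727 had none listed.

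The lists and members were chosen with earlier results of these data known. Lists were planned from symbols and gene descriptions, but the table holds no descriptions, so symbols were used. Named genes were the 15 largest named rises and falls without overlap between ages, up to 5 called genes per direction and list, up to 2 uncalled genes with the highest mean, all genes of lists with at most 6, the floral MADS-box genes and the 10 genes furthest above and below for expanded leaf replicate 3. RCABP69, PRR1, PP2C08, CHLP, JAZ7, JAZ10, JAZ13, and the genes named for replicates 1 and 2 were added after their values were seen. The same holds for any gene named for a change without 1 replicate.

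Same-numbered arrays of the 2 ages deviated together with correlations of 0.0537, 0.0448 and 0.0941, so replicate numbers were not taken to pair samples. Alternatives covered the fit, scaling, filters, thresholds and leaving out each array.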

Additional observations from a re-analysis of the deposited data

How the results depend on the processing

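With only 3 arrays per age, leaving out 1 array costs calls. Of 10164 calls 67.2% to 93.1% were kept without 1 array, 84.3% with a replicate block and 99.8% in a fit of all 21 arrays, and none turned to the opposite direction. Over 15 alternatives the probe sets called higher numbered 2743 to 5635 and those called lower 3799 to 7324, and in 14 of 15 each count stayed within 1.5 times that reported. The exception was an adjusted p under 0.01, with 2743 higher and 3799 lower and with 82 list genes lower in place of 125. Leaving out 1 array gave 2870 to 4712 higher and 4007 to 6759 lower. List genes called higher numbered 86 to 168 and those called lower 82 to 158.

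The replicate block gave 3673 probe sets higher and 5165 lower, and it ended the call of 44 of 270 named or list probe sets. Once group means were taken off, each array's deviations correlated best with those of its own number from the other age (0.0448 to 0.0941). That is a hint from the data and not from the design. The levels themselves did not pair so, as every primordium array correlated best with expanded leaf replicate 2. Of the same 270 calls 44, 16 and 24 were lost without expanded leaf replicates 1, 2 and 3, and 69, 82 and 68 without leaf primordium replicates 1, 2 and 3.

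Among probe sets not called as reported, 3 changed sign and were then called. CKX11 stood at 1.23 without expanded leaf replicate 3, and JAZ10 at 1.51 and mfs1 at 1.58 without replicate 2. Over the fits without 1 array CKX11 ran from -0.77 and mfs1 from -1.16 to these values. The sign of a list's median changed without expanded leaf replicate 2 for the glyoxylate cycle (1.19 to -1.19), abscisic acid (-0.21 to 0.13) and the cellulose synthases (-0.60 to 0.02). With only probe sets of above-median level it changed for sucrose and starch enzymes (0.22 to -0.80) and gibberellin (0.52 to -0.53). The cause of these changes was not tested.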

Other observations

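Nramp1, NAS2, NAS1 and OsVIT1.2, which are known from the handling of metals, stood apart in expanded leaf replicate 1, and none of the 4 passed the test between the ages. They were picked among the named genes in which that array lay furthest from both others, a ranking made after the values were seen. Nramp1, a metal transporter of the plasma membrane, stood at 12.74, 7.17 and 5.46 in replicates 1, 2 and 3, with a primordium mean of 6.16. NAS2 and NAS1, nicotianamine synthases that make a chelator of iron, stood at 11.08, 5.67 and 5.55 and at 9.57, 4.46 and 4.41. OsVIT1.2, a vacuolar iron transporter gene, had the opposite order, at 5.72, 8.27 and 10.56. NAS3 was high in replicate 3 instead, and NAAT1 was low there, as given above. No cause of these differences was tested.

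Among the genes of replicate 2, beside those of the glyoxylate cycle, were ASMT, an N-acetylserotonin methyltransferase (6.14, 12.29 and 6.94), the germin-like protein gene GLP2 (7.21, 11.57 and 5.89) and BURP17 (5.54, 10.30 and 4.01). CIPK5, a calcium-regulated kinase gene, was low there (12.06, 6.81 and 11.85) but still above the primordium mean of 3.96.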
